A study of Mus musculus with 14 samples.

Results

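The genes described here are 5 of the mouse Gata genes, namely Gata2, Gata3, Gata4, Gata5 and Gata6. They were taken by name from the 21938 protein-coding genes annotated on the assembled chromosomes. Gata1 was left out and is counted among the partner genes further below. For each gene, H3K27me3 sites were collected over 3 kinds of sequence, namely 1 kb on either side of every annotated transcription start site, the gene body, and the 50 kb on each side of the body. Together the 5 genes with their surroundings held 102 of the 153983 sites in the list. H3K27me3 is the trimethylation of lysine 27 of histone H3, measured here by chromatin immunoprecipitation followed by sequencing (ChIP-seq). A site is a stretch of the genome that the authors called as enriched for the mark.

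The cells, called iMEF in the labels, were derived from immortalised mouse embryo fibroblasts in which exon 4 of the floxed Ash2l gene had been deleted with a Cre-ER recombinase and lived on lentiviral FKBP-HA2-ASH2L, a degradable fusion of the trithorax protein ASH2L. All groups share this background, controls included, and the study used the single clone NG3 for this experiment. The compound dTAG-13, a PROTAC, bridges the FKBP tag to the E3 ligase receptor cereblon so that the fusion is degraded. The 12 H3K27me3 libraries formed 6 groups of 2 replicates, untreated control cells and cells kept in dTAG-13 for 30 min or for 2, 4, 8 or 16 h. Input chromatin was sequenced in 2 further libraries, 1 from the control and 1 from the longest exposure. The question was how this Polycomb mark responds to the loss of ASH2L, which belongs to the complexes that methylate H3K4.

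The deposited list brings together the sites of all samples and gives only their positions. It holds no read count and no call for any library, so control and treated cells could not be compared from it, replicate error cannot be given, and no test was run. Comparisons by time point made in the study were not used here. The depth behind each site is unknown. A site may come from any of the 6 groups, and from all cells or only some of them, which cannot be told apart here. Where no site is listed, the mark was not called, which does not show that it was absent. Neighbouring sites are not independent of each other.

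GATA factors are zinc finger proteins that bind DNA at the short motif from which the family takes its name. Gata2 and Gata3 belong to the branch best known from blood cells, whereas Gata4, Gata5 and Gata6 belong to the branch best known from the heart and the gut endoderm. H3K27me3 is set by Polycomb repressive complex 2 and typically lies over silent genes of other lineages, developmental regulators in particular, often as broad domains around CpG-rich start sites. Differentiated cells such as fibroblasts keep many lineage regulators under this mark.

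The 5 genes fell into 3 patterns. Gata4 and Gata5 were covered along most of the gene, with sites over 70.4% and 98.3% of the body. Gata2 and Gata3 had sites over the 5' part of the gene, up to 4.34 kb and 7.36 kb past the 5' end, and none further in, so that 32.9% and 19.1% of the body was covered. For Gata3 this rests on its outer start sites. Its curated RefSeq start site lies 11434 bp past the 5' end, beyond all of these sites. From there to the 3' end no site was listed, as in Gata6. Gata6 had no site at any start site and none in the body. The map of sites over the 5 genes shows these patterns on 1 scale.

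**Figure D1:**
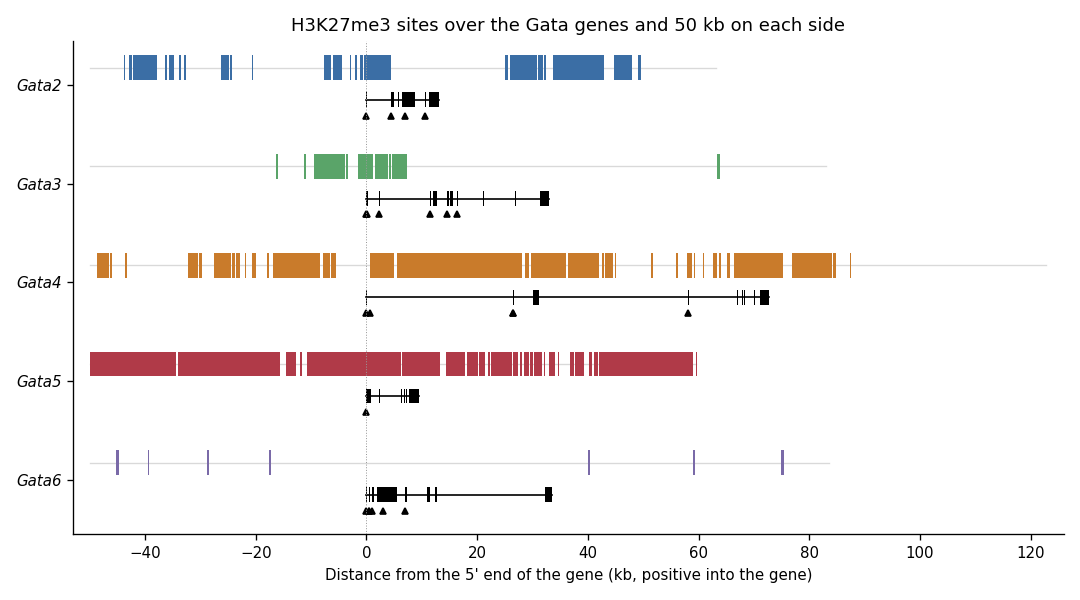
H3K27me3 sites (coloured boxes) over each Gata gene and 50 kb on each side, plotted by distance from the 5' end of the gene in kb, with all genes drawn to read from left to right. Black boxes are exons, the black line is the gene body and triangles are annotated start sites; Gata5 is covered nearly throughout, whereas the 7 sites around Gata6 all lie outside its body.

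Within 1 kb of a start site, 4 of the 5 Gata genes had a site, and the exception was Gata6. Over all protein-coding genes this share was 31.5%. The same 4 genes had a site of at least 2 kb there, against 16.1% of all protein-coding genes. A site in the body was likewise found in 4 of the 5 genes, against 46.7% of all genes. All of those in Gata3 lie before its curated RefSeq start site. A site of at least 5 kb in the body was found in 2 of the 5, Gata4 and Gata5, against 10.0% of all genes. The call at a start site of Gata3 rests on its outer start sites, and with the start sites of GENCODE basic or curated RefSeq transcripts only, 3 of the 5 genes had a site. With 5 genes, each gene moves such a share by a large step, so these counts are a description of the 5 genes.

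The covered share of the start-site windows was 100% for Gata5, 56.9% for Gata4, 37.6% for Gata3, 34.1% for Gata2 and 0% for Gata6. The median of the 5 was 37.6%, beside a median of 0% and an upper quartile of 9.95% over all protein-coding genes. Other sets of start sites gave medians of the 5 from 59.9% to 91.5%. Gata2 and Gata3 differed by a few percentage points only, and their order changed when the windows were widened to 2 kb or when only GENCODE basic or curated RefSeq start sites were used. The place of Gata4 also depended on the start sites. At the 5' end only, it had 16.2%, below Gata2 with 91.5% and Gata3 and Gata5 with 100%. At curated RefSeq start sites only, it was tied with Gata5 at 100%.

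In the body, the order was Gata5, Gata4, Gata2, Gata3 and Gata6, with a median of 32.9% beside 0% over all genes. In the 50 kb on each side it was 87.3% for Gata5, 33.2% for Gata2, 32.3% for Gata4, 8.53% for Gata3 and 2.79% for Gata6. Here the median was 32.3% beside 4.09% over all genes, and Gata2 and Gata4 were near each other. With 20 kb on each side they were further apart, at 27.9% and 54.3%. Gata5 was the highest of the 5, and 99.8% of all protein-coding genes had less of their surroundings covered. For Gata3, 62.2% of genes had a smaller share of the surroundings covered and 83.1% a smaller share of the body, counted from its outermost start site. Its share of the surroundings depended on the distance taken and was 19.6% at 20 kb, near that of its body, and 4.73% at 100 kb. For Gata6, 44.1% of genes had a smaller share of the surroundings covered, so its surroundings lay near the middle of all genes.

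**Figure D2:**
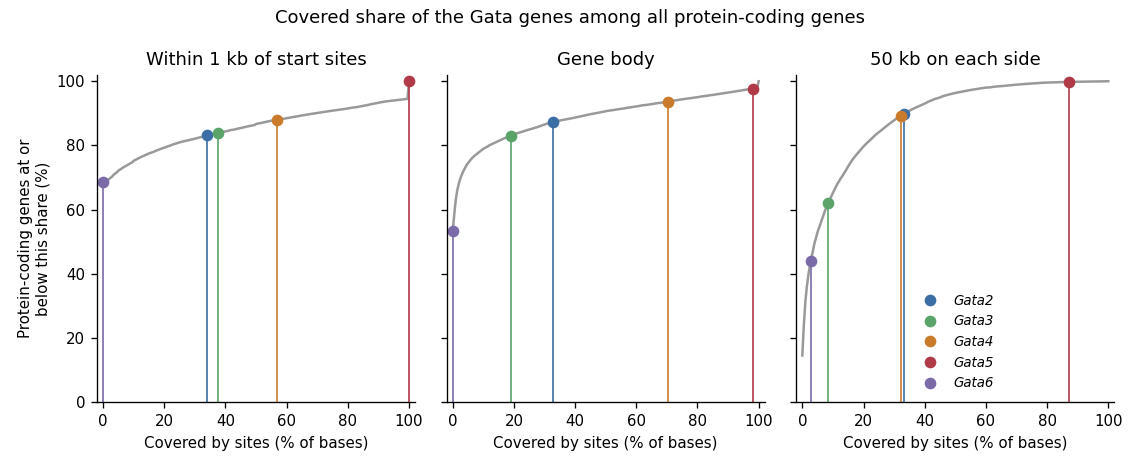
Share of bases covered by H3K27me3 sites within 1 kb of start sites, in the gene body and in the 50 kb on each side (horizontal axes, %), against the percentage of 21938 protein-coding genes at or below that share (vertical axis). The grey line is all protein-coding genes and each coloured point is 1 Gata gene; Gata6 lies at 0% in the first 2 panels, where all genes without a site in that sequence lie, and Gata5 lies near the right end of all 3.

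Coding sequence divided the genes more sharply than the body as a whole. All 1326 coding bp of Gata4, in 6 blocks, lay in sites. In Gata5, 1090 of 1212 coding bp did, or 89.9%. In contrast, none of the 1440 coding bp of Gata2, the 1329 of Gata3 or the 1767 of Gata6 lay in a site. Thus 2 of the 5 genes had a coding base in a site, a count near the 33.3% of all protein-coding genes. The first coding base of Gata2 was 1330 bp away from the nearest site and that of Gata3 was 5084 bp away, whereas those of Gata4 and Gata5 lay inside one. Exons as a whole showed the same division, with 94.4% of exonic bases covered in Gata4 and 96.3% in Gata5, but 10.4% in Gata3 and 2.04% in Gata2. In Gata2 the sites in the body lay over the first exon, from 0 to 109 bp, and otherwise over introns, of which 54.4% was covered.

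The 5 genes have 22 annotated start sites, of which 8 lay inside a site and 11 had a site within 1 kb. Over all protein-coding genes, 13.0% of start sites lay inside a site. Start sites of a gene share windows and are not independent. The distal start site of Gata2, from which the first exon used in blood and neural cells is transcribed, lay inside a site of 3.43 kb, and 91.5% of its window was covered. The proximal start site, 4443 bp further in, lay 103 bp past the end of a site of 1.39 kb. Upstream of the proximal start site 89.8% of the kb was covered, and downstream 0%. The 2 start sites inside the gene, both of transcripts with a retained intron, had no site in their windows.

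In Gata3 the 3 outer start sites lay inside sites, with 100%, 100% and 82.0% of their windows covered. The start site of the main transcript, 11434 bp further in, was 4073 bp away from the nearest site, and its window was not covered at all. The transcript from the outermost start site is annotated as protein-coding too, so the 2 protein-coding promoters of this gene had covered shares of 100% and 0%. The sequences before 5 start sites of Gata2, Gata3 and Gata5 are given here because the promoters within Gata2 and within Gata3 differ in how far a site covers them, with the covered promoter of Gata5 beside them. Each is the 250 bases before the start site, 5′ to 3′ on the strand of the gene, from the GRCm38.p6 sequence, with every CG dinucleotide (CpG) in capitals. None of these bases is in an annotated exon.
Gata2 distal, chr6:88193641-88193890, plus strand: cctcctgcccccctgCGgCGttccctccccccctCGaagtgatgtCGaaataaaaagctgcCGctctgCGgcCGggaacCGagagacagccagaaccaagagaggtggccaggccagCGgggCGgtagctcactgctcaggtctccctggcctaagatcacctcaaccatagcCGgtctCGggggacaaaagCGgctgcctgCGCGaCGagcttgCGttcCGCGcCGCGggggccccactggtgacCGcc
Gata2 proximal, chr6:88198084-88198333, plus strand: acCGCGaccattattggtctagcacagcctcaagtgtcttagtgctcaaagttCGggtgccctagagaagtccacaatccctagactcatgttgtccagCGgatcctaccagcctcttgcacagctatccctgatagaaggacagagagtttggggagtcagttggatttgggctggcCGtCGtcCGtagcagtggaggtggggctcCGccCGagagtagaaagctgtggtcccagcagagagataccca
Gata3 outer, chr2:9890035-9890284, minus strand: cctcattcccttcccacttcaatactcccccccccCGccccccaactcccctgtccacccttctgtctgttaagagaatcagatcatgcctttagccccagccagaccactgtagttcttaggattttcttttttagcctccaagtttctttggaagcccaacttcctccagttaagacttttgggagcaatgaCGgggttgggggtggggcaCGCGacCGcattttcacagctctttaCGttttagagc
Gata3 main, chr2:9878601-9878850, minus strand: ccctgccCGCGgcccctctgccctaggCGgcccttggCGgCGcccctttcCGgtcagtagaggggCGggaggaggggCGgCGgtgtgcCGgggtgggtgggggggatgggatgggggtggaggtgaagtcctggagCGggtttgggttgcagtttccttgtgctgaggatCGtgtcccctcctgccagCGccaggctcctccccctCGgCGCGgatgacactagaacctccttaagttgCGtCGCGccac
Gata5, chr2:180334700-180334949, minus strand: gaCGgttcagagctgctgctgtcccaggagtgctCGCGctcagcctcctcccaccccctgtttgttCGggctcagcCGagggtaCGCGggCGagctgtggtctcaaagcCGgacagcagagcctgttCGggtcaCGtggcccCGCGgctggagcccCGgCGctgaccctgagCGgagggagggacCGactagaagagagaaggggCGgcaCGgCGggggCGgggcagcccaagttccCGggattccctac

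All 250 bases lay in a site for the distal promoter of Gata2, the outer promoter of Gata3 and the promoter of Gata5. For the proximal promoter of Gata2 it was the first 148 bases, up to the end of the site, and for the main promoter of Gata3 it was 0. Across the 5 promoters the number of CpG did not follow this division. There were 22 CpG before the distal start site of Gata2 and 22 before that of Gata5, both covered, but also 19 before the main start site of Gata3, which was not. In contrast, the covered outer promoter of Gata3 had 6 CpG. The proximal promoter of Gata2, covered in part, had 9, fewer than the fully covered distal promoter of the same gene. Over the 32851 promoters of RefSeq the median was 6 CpG and the upper quartile 16. Of the 5 genes, 3 (Gata2, Gata3 and Gata5) were matched in the RefSeq promoter table.

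**Figure D3:**
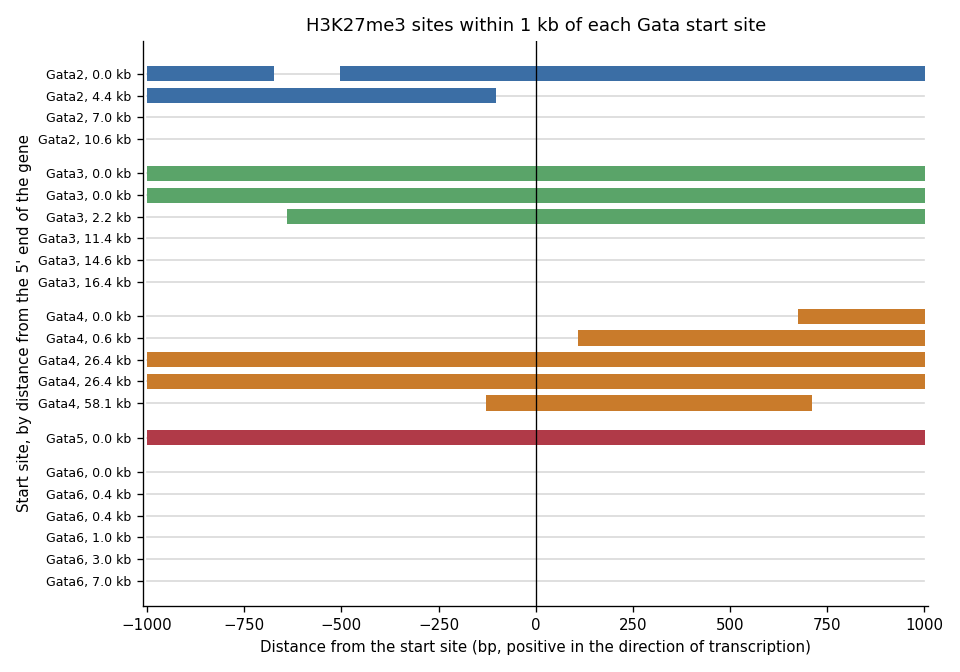
H3K27me3 sites (coloured) within 1 kb of each of the 22 annotated start sites of the Gata genes, plotted by distance from the start site in bp, positive in the direction of transcription. Each line is 1 start site, labelled with its distance from the 5' end of its gene in kb; 8 start sites lie inside a site and all 6 of Gata6 have an empty window.

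CpG content was also taken over 500 bp on either side of each start site. A start site was called CpG-rich where the GC content was at least 50% and the ratio of observed to expected CpG at least 0.6. Of the 22 start sites 11 were CpG-rich, and 4 of these lay inside a site, as did 4 of the 11 others. The CpG-rich start sites inside a site belonged to Gata2, Gata4 and Gata5. Of the 7 outside, 5 belonged to Gata6, 1 was the proximal start site of Gata2 and 1 the main start site of Gata3. Over all protein-coding genes, 25.5% of those that were CpG-rich at the 5' end had a site at a start site, and 36.3% of the others. These shares count genes with a site within 1 kb of any start site. They are not on the same measure as the counts of start sites inside a site.

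Gata2 (ENSMUSG00000015053, chr6:88193891-88207032, plus strand, GRCm38) is needed for blood stem and progenitor cells and also acts in neural and endothelial cells. Its body of 13.1 kb was overlapped by 2 sites, of 3.43 kb from 503 bp before to 2931 bp past the 5' end and of 1.39 kb from 2949 to 4340 bp past it. Only 17 bp separated them. Past this point no site was listed up to 25010 bp from the 5' end, so the exons that code for the protein and the sequence behind the gene were free of sites. Upstream of the gene 26.7% of the 50 kb was covered. Most of the sites there were narrower than 1 kb, and the widest was 4.34 kb. Downstream the share was 39.6%, and the widest site of the region, 9.08 kb, lay there from 33789 to 42865 bp past the 5' end. This widest site lies within the neighbouring gene Dnajb8, a chaperone of the J-domain family known from the testis, whose start-site windows were covered to 100%. An antisense transcript of that locus, 1700031F10Rik, was covered to 81.7% in its windows, whereas the long noncoding RNA Gm38708, just upstream of Gata2, was covered to 11.0%.

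Gata3 (ENSMUSG00000015619, chr2:9857078-9890034, minus strand) is a master regulator of T helper 2 cells and is also needed in the mammary epithelium, the trophoblast and the kidney. All 5 sites of its 33.0 kb body lay within 7361 bp of the 5' end. The 3 wider ones were 2.69, 1.87 and 2.72 kb. A further site of 5.47 kb, the widest of the region, lay upstream, from 9396 to 3923 bp before the 5' end. With joining of sites less than 1 kb apart, the 5 sites of the body became 1 stretch of 8.93 kb, wider than 94.7% of all stretches joined in the same way. From 7362 bp past the 5' end there followed 55.9 kb with no site, which hold the main promoter, all coding exons and the 3' end. Of all gaps between neighbouring sites 6.75% were longer than 50 kb.

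The sites in the body of Gata3 also overlap other genes. The gene 9230102O04Rik, on the same strand and starting 494 bp further in, had 90.5% of its start-site windows and 83.4% of its body covered. The gene 4930412O13Rik lies on the opposite strand within Gata3, and 28.5% of its windows was covered. To which of these genes the sites belong cannot be told apart from positions. The antisense transcript Gm13256, which starts near the main start site of Gata3, had no site in its windows. Upstream, Taf3, which codes for a subunit of the general transcription factor TFIID, had no site at a start site either. Only 1.37% of the 50 kb downstream of Gata3 was covered, by 1 site, compared with 15.7% upstream.

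Gata4 (ENSMUSG00000021944, chr14:63198922-63271692, minus strand) acts in the heart, the gut endoderm and the gonads. It is the longest of the 5 genes, at 72.8 kb, and 18 sites overlapped its body and covered 51.2 kb of it. The widest was 22.7 kb, from 5434 to 28105 bp past the 5' end, and lay over 2 start sites 26421 and 26444 bp past the 5' end, whose windows were covered to 100%. Of all sites, 99.8% were narrower. Next to it lay sites of 6.34, 5.56 and 4.27 kb, and with sites closer than 1 kb joined they formed 1 stretch of 44.4 kb from 9 sites, of which 92.9% was covered. Only 261 of 83143 such stretches in the genome were wider.

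The outer start sites of Gata4 lay at the edge of this stretch. The outermost was 676 bp and the second 108 bp away from it, and 16.2% and 44.6% of their windows was covered, in both cases only downstream of the start. The innermost start site, 58.1 kb past the 5' end, lay in a site of 838 bp. Coverage was not even along the gene, and between 45088 and 66387 bp past the 5' end, around the innermost start site, 8 sites of 237 to 838 bp were listed. A further site of 8.91 kb covered the last exons and ran past the 3' end. Upstream 43.8% of the 50 kb was covered, with a site of 8.63 kb as the widest, and downstream 20.7%. The neighbour Neil2, a DNA glycosylase of base excision repair, had 99.4% of its windows covered. In contrast, Fdft1, which codes for squalene synthase and lies behind Neil2, had no site at a start site or in the body.

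Gata5 (ENSMUSG00000015627, chr2:180325133-180334699, minus strand) acts in the endocardium and the gut. It has 1 annotated start site, inside a site of 17.1 kb that ran from 10826 bp before to 6270 bp past the 5' end. A second site of 6.85 kb covered the rest of the body after a gap of 165 bp. The surroundings were covered to 93.9% upstream and 80.7% downstream, by 25 sites in the whole region. Of these 4 were at least 10 kb wide, namely 28.2, 18.4, 17.1 and 17.0 kb, and the widest lay upstream, more than 34 kb before the 5' end. Only 0.944% of all sites reached 10 kb.

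Joining sites closer than 5 kb gave 1 stretch of 153 kb from 42 sites around Gata5, of which 87.5% was covered. In the genome 115 of 42895 such stretches were wider. The stretch holds Gata5os, the antisense transcript that starts inside Gata5, and Rbbp8nl, a neighbour 3' of the gene. Both were covered to 100% in windows and body. Behind it came 144 kb with no site, beginning 60300 bp past the 5' end. This stretch ran from position -92487 to position 60299, in bp from the 5' end of Gata5, and so extended beyond the gene on both sides, whereas the 44.4 kb stretch of Gata4, also with this joining, lay within the gene.

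Gata6 (ENSMUSG00000005836, chr18:11052064-11085635, plus strand) acts in the primitive endoderm, the heart and the lung. It is the gene among the 5 without a site at a start site or in its body. Of all protein-coding genes, 52.0% had none in either place. The site nearest to the 5' end was 17192 bp upstream and 375 bp wide, and the next downstream was 39966 bp past the 5' end, behind the gene. The 57.2 kb between them are free of sites and hold the whole gene and its 6 start sites. In all, 7 sites were listed in the region, of 200 to 654 bp, and none reached 1 kb. Of all protein-coding genes, 40.1% had no site in the body or within 5 kb of it, as did Gata6. The noncoding transcript 1010001N08Rik, which starts opposite to Gata6, had no site in its windows, and no protein-coding gene started within 50 kb of Gata6.

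Sites in the regions of the 5 genes had a median width of 694 bp, beside 455 bp over all sites, whose quartiles were 273 and 932 bp. Of the 102 sites, 38 were at least 1 kb, 12 at least 5 kb and 5 at least 10 kb wide. Over all sites the upper quartile lay below 1 kb, 3.30% reached 5 kb and 0.944% reached 10 kb. The wide sites were few in number, and 6 of the 102 had the smallest width of the list, 200 bp. Of all sites, 12.9% were narrower than 202 bp. The sites of at least 10 kb were 4 around Gata5 and 1 around Gata4. The median width was 1032 bp around Gata5, 686 bp around Gata4, 634 bp around Gata2, 532 bp around Gata3 and 371 bp around Gata6. Thus the ranges overlapped widely. The 5 regions differed in these medians, in their widest sites and in the number of sites, from 7 around Gata6 to 36 around Gata4.

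**Figure D4:**
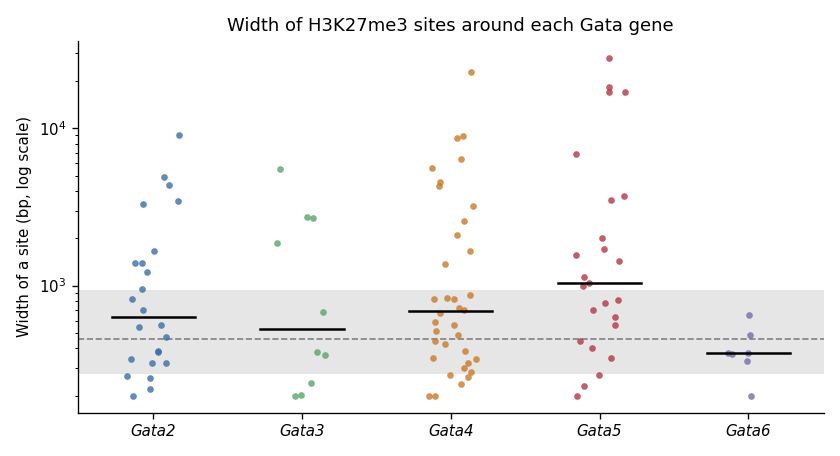
Width of each of the 102 H3K27me3 sites around the Gata genes in bp on a log scale, 1 point a site, spread sideways for visibility, with the median of each gene as a black line. The grey band spans the quartiles of all sites (273 to 932 bp) and the dashed line is their median (455 bp); the widest sites lie around Gata5 and Gata4, and the widest around Gata6 is 654 bp.

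The limits of the windows left some sites close by uncounted. Of the counted sites, the farthest from a gene body was 49954 bp away from Gata5 and 780 bp wide, and the nearest site not counted was 51632 bp away from Gata6 and 1081 bp wide. At the start sites, a site of 472 bp at 674 bp from the distal start site of Gata2 was counted, and a site of 263 bp at 1060 bp from a start site of Gata4 was not.

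Within the regions, bases in sites held more CpG than bases outside them in 4 of the 5 genes. There were 18.1 CpG per kb in sites and 13.3 outside around Gata2, 22.6 and 13.3 around Gata3, 16.5 and 10.7 around Gata4, and 11.7 and 9.70 around Gata5. Around Gata6 there were 8.97 per kb in the few sites and 10.1 outside. The region with the largest covered share, that of Gata5, was therefore not the one richest in CpG. Repeats, as marked in the assembly, made up 16.3% of the Gata5 region and 29.1% of the Gata6 region, with 20.8% to 24.3% in the others. Reads from repeats are harder to place, and their part in these values was not tested. No stretch of 5 kb or more of the 5 regions had a copy with at least 99% identity on the 217 other sequences of the assembly.

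Genes that work with or under GATA factors were counted in the same way. Of 15 partners (other GATA and FOG family members, LIM and bHLH factors of the blood complex, and cardiac factors), 8 had a site at a start site and 5 a site of at least 2 kb, with a median covered share of 4.72%. The 5 with wide sites were tied at 100%, namely Hand2, Nkx2-5 and Tbx5, which act in the heart, and Lmo2 and Tal1, which act in blood with Gata1 and Gata2. Of 15 target genes, 13 had a site at a start site, each of at least 2 kb, and the median was 85.4%. Here also 5 were tied at 100%, namely Cd3e of T cells, Epor and Gfi1b of the red cell lineage, Il5 of T helper 2 cells and Foxa2 of the endoderm. These counts stand beside the 31.5% and 16.1% of all protein-coding genes given above.

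Marker genes of the labelled cell type were looked at as a check. Of 8 fibroblast markers 3 had a site at a start site, none of them as wide as 2 kb, and the median covered share was 0%. Of 5 blood markers 4 had a site and 2 a site of at least 2 kb, of 4 epithelial markers 3 and 2, and of 3 endothelial markers 1 and 1. Beside them stand the 31.5% and 16.1% of all protein-coding genes, and the share of fibroblast markers with a site was near the former. The list has positions only and says nothing of expression.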

How the data were processed

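H3K27me3 ChIP-seq reads were trimmed by the authors with Trim Galore, aligned with BWA to mm10 (GRCm38.p6), filtered, and brought to the lowest coverage of the experiment, and replicates were merged with Picard. The authors called broad peaks with MACS and brought them together over all samples. Versions, the peak threshold and the rule for combining peaks are not given in the sources used here. The deposited list gives chromosome, start and end, counted from 0 with the end excluded (the smallest width is 200 bp), and no values per library. Columns of per-sample values without a sample numbered 0. More or deeper libraries can lengthen such a list, and a pooled list does not show which group a site came from.

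Positions were converted to count from 1 and compared with GENCODE M21 and RefSeq annotation of GRCm38.p6. The authors used a later GENCODE release. A gene's start-site windows are the union of 1 kb on either side of all its annotated start sites, and the covered share is the percentage of bases in sites. Bases were counted with Python 3.11.15, numpy 2.4.6 and pysam 0.24.0, copies were searched with minimap2 2.31-r1302, and the counting was tested on simulated data, where 50 of 50 lists matched a base-by-base map.

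All 5 members were named, with protein-coding neighbours starting within 50 kb, and the 3 partners and 3 targets with the highest covered share of the start-site windows, ties included. Noncoding neighbours were added after their values were seen. The members and lists were chosen with earlier results of these data known. With 1 list and no replicates, values were described beside all protein-coding genes and no test was made. Alternatives were joined sites, minimum widths, other windows and surroundings, and other sets of start sites.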

Additional observations from a re-analysis of the deposited data

How the results depend on the processing

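The choice of start sites moved the values at the starts most. The median covered share of the start-site windows, 37.6% over all annotated start sites, was 91.5% with the 5' end of each gene only, 68.2% with the start sites of GENCODE basic transcripts and 59.9% with those of curated RefSeq transcripts. The last 2 settings were chosen after seeing the data. Under both, 3 rather than 4 genes had a site at a start site, because only the main start site of Gata3 is kept and its share is 0%. In the other settings the number stayed at 4. The number of sites, 102, fell to 40 after joining across less than 1 kb and to 18 across less than 5 kb, and was 61 with sites of at least 500 bp and 38 with sites of at least 1 kb, and 62 and 164 with surroundings of 20 kb and 100 kb. The order of the bodies was the same in each setting in which it was computed, whereas Gata2 and Gata4 changed places in the surroundings, with 33.1% and 48.3% when the body was included. The share of the Gata3 surroundings was 17.1% after joining across less than 5 kb. Of 130 values for single genes, 38 moved by more than 1.5 times and 92 did not. The list has no values per library, so depth limits cannot be given and leaving out a replicate was not possible. No paired analysis was possible because replicates cannot be told apart in it.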
